A study of Homo sapiens with 8 samples.

Results

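The cGAS-STING pathway of cytosolic DNA sensing was described across 8 RNA libraries by 9 of its genes, chosen by name from the 61228 gene names in the count tables. The sensors were CGAS and IFI16, the adaptor was STING1, the kinases were TBK1 and IKBKE, the transcription factor was IRF3, and the genes that limit the pathway were TREX1, ENPP1 and SAMHD1. All 9 were listed under their present symbols, and 8 passed the filter on low counts. TREX1 was the exception.

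RNA came from H1975 and HCC44, 2 established human lines of lung cancer cells; both are labelled wild type with no further genotype given. Each line was cultured for 96 hours with the solvent DMSO or with ACBI1, labelled at 1 mM, a concentration whose unit is doubtful because degraders of this kind are used at far lower ones. ACBI1 is a degrader: it brings the chromatin remodelling proteins SMARCA4, SMARCA2 and PBRM1 to the ubiquitin ligase VHL. The 4 groups, H1975 with DMSO, H1975 with ACBI1, HCC44 with DMSO and HCC44 with ACBI1, held 2 libraries each. The series title concerns SMARCA4-mutant lung cancer, tumour immunity and STING, and the comparisons ask how transcripts of the pathway differ with ACBI1 in each line.

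When DNA reaches the cytosol, the enzyme cGAS binds it and makes the cyclic dinucleotide cGAMP, which binds STING on the endoplasmic reticulum. STING then moves to the Golgi, where TBK1, and in some settings its relative IKK-epsilon (IKBKE), phosphorylates it and the factor IRF3, and IRF3 enters the nucleus and switches on interferon beta. The nuclease TREX1 removes the DNA, ENPP1 hydrolyses cGAMP outside cells, and SAMHD1 hydrolyses deoxynucleotides and helps process stalled replication forks.

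Each library held between 62467286 and 70455517 counts of genes, and replicates correlated at 0.992 to 0.994 (Pearson r of log2 CPM). Levels are counts relative to library size, scaled with TMM factors (CPM). Log2 fold changes are ACBI1 over DMSO with their standard error (SE), and a gene was called at a Benjamini-Hochberg adjusted p under 0.05 in edgeR's quasi-likelihood test over 21307 genes. The labels do not say whether replicates were separate cultures, so p-values measure the spread between these libraries, which may be technical. All 6 epithelial markers (EPCAM, CDH1 and the keratins KRT7, KRT8, KRT18 and KRT19) were above 1 CPM in every group, and their summed level was 5135 to 5392 CPM in H1975 with DMSO, 2330 to 2807 CPM in H1975 with ACBI1, 939.5 to 980 CPM in HCC44 with DMSO and 1199 to 1657 CPM in HCC44 with ACBI1. The 6 leukocyte markers summed to at most 3.80 CPM and the 3 endothelial markers to at most 4.005 CPM in any library, and CD3E had no count in any group. The 5 fibroblast markers summed to 48.8 to 71.9 and 25.5 to 30.4 CPM in H1975 with DMSO and ACBI1, and to 73.4 to 91.8 and 203 to 406 CPM in HCC44, with DCN at 0 in every group. In bulk RNA, fewer cells of a type and less RNA per cell cannot be told apart, and the part of these markers in the results was not tested.

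IKBKE, IFI16, SAMHD1 and STING1 were called lower with ACBI1 in both lines. Promoter windows are shown for the 3 of these genes that had an entry. RefSeq windows from 250 bases before to 50 after the annotated start (GRCh38.p14) matched 6 of the 9 genes by symbol; CGAS, STING1 and IRF3 had no entry. Capitals mark matches on either strand to the IRF core motif AANNGAAA, which interferon regulatory factors recognise. IKBKE is read from chr1:206470226-206470525 on the plus strand, IFI16 from chr1:159008741-159009040 and chr1:159009657-159009956 on the plus strand, and SAMHD1 from chr20:36951659-36951958 on the minus strand.
IKBKE: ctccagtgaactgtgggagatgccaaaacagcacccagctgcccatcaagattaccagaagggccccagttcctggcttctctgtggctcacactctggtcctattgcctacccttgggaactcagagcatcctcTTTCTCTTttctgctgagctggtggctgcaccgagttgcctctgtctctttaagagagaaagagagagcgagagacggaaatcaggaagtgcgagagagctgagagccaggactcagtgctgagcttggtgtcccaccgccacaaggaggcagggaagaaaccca
IFI16, first window: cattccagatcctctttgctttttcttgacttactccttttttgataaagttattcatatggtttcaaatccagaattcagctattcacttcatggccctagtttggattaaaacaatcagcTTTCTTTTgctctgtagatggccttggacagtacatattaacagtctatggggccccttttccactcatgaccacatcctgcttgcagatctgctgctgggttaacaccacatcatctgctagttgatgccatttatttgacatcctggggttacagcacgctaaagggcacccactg
IFI16, second window: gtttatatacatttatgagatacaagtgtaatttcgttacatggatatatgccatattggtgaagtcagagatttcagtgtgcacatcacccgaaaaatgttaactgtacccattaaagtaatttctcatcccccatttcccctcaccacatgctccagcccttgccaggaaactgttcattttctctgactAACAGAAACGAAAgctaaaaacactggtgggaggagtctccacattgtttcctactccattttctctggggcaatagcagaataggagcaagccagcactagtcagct
SAMHD1: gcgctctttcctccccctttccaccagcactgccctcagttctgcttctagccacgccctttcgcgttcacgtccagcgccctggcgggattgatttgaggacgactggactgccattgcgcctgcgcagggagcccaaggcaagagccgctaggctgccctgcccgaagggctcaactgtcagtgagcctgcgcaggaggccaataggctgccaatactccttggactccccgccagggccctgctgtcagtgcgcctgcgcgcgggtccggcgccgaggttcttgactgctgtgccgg
The IKBKE window held 1 match, which begins 115 bases before the start and lies on the opposite strand. The first IFI16 window held 1 match, 128 bases before its start and on the opposite strand, and the second held 2 overlapping matches on the gene's strand, 58 and 53 bases before its start. SAMHD1 held none, and neither did the windows of TBK1, ENPP1 and TREX1. The motif occurs in 22.8% of all 35116 windows. The STAT motif TTCNNNGAA (7.66% of windows) and the NF-kB consensus (11.3%) matched in none of the 7 windows of these 6 genes. The AP-1 motif TGANTCA (7.71%) matched once, in TREX1. GC boxes, GGGCGG (45.0%), matched in ENPP1 alone among these windows, 7 times. A match describes letters and is not evidence of binding.

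With ACBI1, 4 of the 8 tested genes fell in H1975 (STING1, IFI16, IKBKE and SAMHD1) and 5 fell in HCC44 (the same 4 and CGAS). None rose past the threshold in either line. Over all tested genes 16.7% were called lower in H1975 and 17.4% in HCC44, 14.6% and 17.5% were called higher, and 31.3% and 34.9% in either direction. The median log2 fold change of the 8 genes was -0.48 in H1975 and -0.52 in HCC44, against -0.01 and 0.01 over all tested genes. The calls of STING1, IFI16, IKBKE and SAMHD1 in both lines held under all 18 alternatives tried, the scalings among them.

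**Figure D1:**
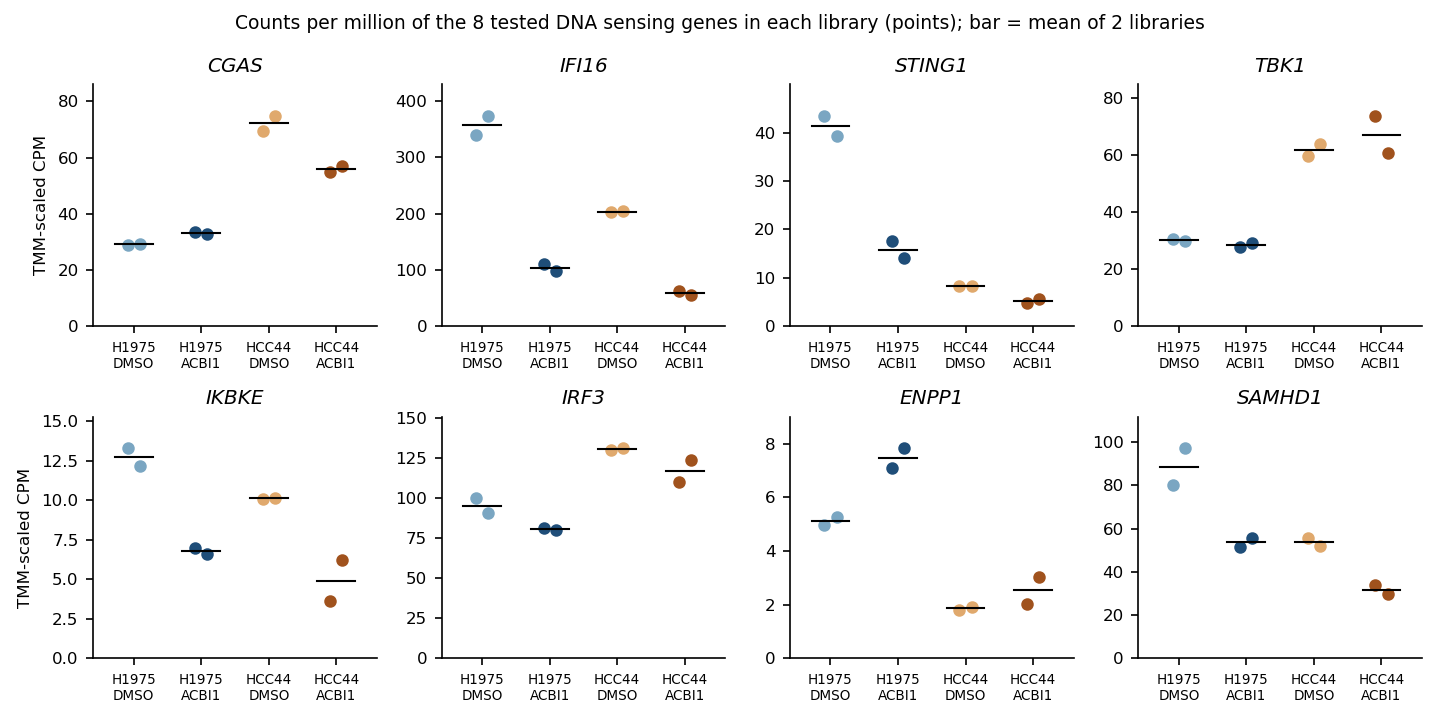
TMM-scaled CPM (y axis, linear from 0, a different range per gene) of the 8 tested DNA sensing genes in each of the 4 groups; points are libraries and bars are means of 2. STING1 ran from 43.5 CPM in H1975 with DMSO down to 4.85 CPM in HCC44 with ACBI1, while CGAS was lowest in H1975 with DMSO.

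Among the sensors, CGAS (chr6:73413515-73452276, minus strand, GRCh38, GENCODE 29) was at 28.99 and 29.1 CPM in H1975 with DMSO, 33.3 and 32.9 CPM with ACBI1, 69.6 and 74.8 CPM in HCC44 with DMSO and 54.9 and 57.1 CPM with ACBI1. The ACBI1 libraries were above both DMSO libraries in H1975 and below both in HCC44. In HCC44 the log2 fold change was -0.37 ± 0.09, a called fall (adjusted p 0.00923). For H1975 the value of 0.19 ± 0.09 missed the threshold (adjusted p 0.146). Of its exon bases, 4.33% are shared with DDX43 on the other strand, and DDX43 had 0 to 169 counts per library. The strand setting of the counting is not given in the sources used here. In H1975 CGAS was called higher when scaled by upper-quartile factors (0.261) or by library totals (0.391). The fall in HCC44 was not called without HCC44 DMSO replicate 2 (-0.311, adjusted p 0.0886; over the 18 alternatives adjusted p ran from 0.00243 to 0.0886).

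IFI16 (chr1:158999968-159055155, plus strand), which encodes a DNA-binding protein of the PYHIN family found mainly in the nucleus, showed the largest fall of the 8 genes in both lines. It was at 341 and 374 CPM in H1975 with DMSO and at 110.3 and 97.4 CPM with ACBI1. In HCC44 it was at 202 and 205 CPM with DMSO and at 61.7 and 55.7 CPM with ACBI1. The groups did not overlap in either line, and HCC44 with DMSO lay between the H1975 groups. IFI16 fell 3.44-fold in H1975 (-1.78 ± 0.10 on the log2 scale, adjusted p 2.81e-06) and 3.47-fold in HCC44 (-1.79 ± 0.10, adjusted p 1.02e-06). The difference between the lines was -0.01 on the log2 scale, with a 95% interval of -0.31 to 0.29, so the data allow differences of up to about that size. None of its exon bases is shared with another gene.

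STING1 (chr5:139475534-139482935, minus strand, listed as TMEM173 in GENCODE 29) encodes the adaptor that receives cGAMP. It was at 43.5 and 39.4 CPM in H1975 with DMSO and at 17.5 and 14.1 CPM with ACBI1. HCC44 libraries were at 8.20 and 8.34 CPM with DMSO and at 4.85 and 5.57 CPM with ACBI1. No 2 groups overlapped, and H1975 with ACBI1 was still above HCC44 with DMSO. The fall was 2.62-fold in H1975 and 1.59-fold in HCC44, and these falls were called with adjusted p of 8.04e-05 and 0.00523. From high to low the groups ran H1975 with DMSO, H1975 with ACBI1, HCC44 with DMSO and HCC44 with ACBI1. For CGAS they ran HCC44 with DMSO, HCC44 with ACBI1, H1975 with ACBI1 and H1975 with DMSO.

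TBK1 (chr12:64451880-64502108, plus strand), the kinase that phosphorylates STING and IRF3, was at 30.6 and 29.6 CPM in H1975 with DMSO and at 27.9 and 28.96 CPM with ACBI1. In HCC44 it was at 59.5 and 63.9 CPM with DMSO and at 73.6 and 60.5 CPM with ACBI1. The groups overlapped in HCC44, and in H1975 the ACBI1 libraries were below both DMSO libraries by less than 3 CPM. The log2 fold changes were -0.08 ± 0.11 (95% interval -0.33 to 0.16, adjusted p 0.606) and 0.12 ± 0.11 (-0.12 to 0.36, adjusted p 0.435), and neither was called under any of 18 alternatives. The sign in H1975 turned with library totals (0.119), and that in HCC44 turned without HCC44 ACBI1 replicate 1 (-0.0251). TBK1 shares 14.7% of its exon bases with a gene on the other strand.

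IKBKE (chr1:206470476-206496889, plus strand), the inducible relative of TBK1, was at 13.3 and 12.2 CPM in H1975 with DMSO and at 6.98 and 6.60 CPM with ACBI1. Its HCC44 levels were 10.1 CPM in both DMSO libraries and 3.62 and 6.23 CPM with ACBI1. The ACBI1 libraries were below the DMSO libraries in both lines, with the HCC44 ACBI1 replicates far apart. On the log2 scale IKBKE fell by 0.91 (SE 0.22) in H1975 and by 1.04 (SE 0.22) in HCC44, with adjusted p of 0.0094 and 0.0042. Leaving out ACBI1 replicate 1 of HCC44 gave -0.697 and leaving out replicate 2 gave -1.48, both called.

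Levels of the 2 kinases were compared per kilobase of exon (GENCODE 29 lengths, which may differ from those the authors counted). TBK1 was 1.83 and 1.93 times IKBKE in the H1975 DMSO libraries and 3.18 and 3.49 times in the ACBI1 libraries. In HCC44 it was 4.69 and 5.02 times IKBKE with DMSO and 16.2 and 7.73 times with ACBI1. The ratio was higher with ACBI1 in every library of both lines, and its 2 values in HCC44 with ACBI1 differ by more than a factor of 2. The corresponding ratio of CGAS to STING1 was 0.618 and 0.685 in H1975 with DMSO, 1.76 and 2.16 with ACBI1, 7.87 and 8.31 in HCC44 with DMSO and 10.5 and 9.50 with ACBI1. H1975 with DMSO was thus the only group of the 4 with less CGAS than STING1 RNA per kilobase.

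IRF3 (chr19:49659569-49665875, minus strand), the transcription factor at the end of the pathway, was at 100.1 and 90.6 CPM in H1975 with DMSO and at 81.5 and 80.5 CPM with ACBI1. In HCC44 it was at 130.1 and 131 CPM with DMSO and at 111 and 124 CPM with ACBI1. The ACBI1 libraries were below the DMSO libraries in both lines. The log2 fold changes were -0.24 ± 0.09 (adjusted p 0.0721) in H1975 and -0.16 ± 0.09 (adjusted p 0.207) in HCC44, and neither was called. The H1975 change was called without either of the HCC44 ACBI1 libraries (-0.237 in both cases, adjusted p 0.0473 without replicate 1 and 0.0471 without replicate 2; 0.0231 to 0.819 over the alternatives). IRF3 shares 19.4% of its exon bases with BCL2L12 on the other strand.

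Of the genes that limit the pathway, SAMHD1 (chr20:36889773-36951901, minus strand) was at 80.0 and 97.1 CPM in H1975 with DMSO and at 51.6 and 55.6 CPM with ACBI1. HCC44 libraries were at 55.4 and 51.9 CPM with DMSO and at 33.7 and 29.8 CPM with ACBI1. H1975 with ACBI1 and HCC44 with DMSO overlapped, and all other groups were apart. On the log2 scale SAMHD1 fell by 0.72 (SE 0.11) in H1975 and by 0.76 (SE 0.12) in HCC44, with adjusted p of 0.001 and 0.000549 and a difference between the lines of -0.03 (95% interval -0.39 to 0.32). It shares 10.3% of its exon bases with TLDC2 on the other strand, and TLDC2 had 1 to 6 counts per library.

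ENPP1 (chr6:131808016-131895155, plus strand) was the least abundant of the 8 genes. It was at 4.95 and 5.26 CPM in H1975 with DMSO and at 7.10 and 7.83 CPM with ACBI1. In HCC44 it was at 1.81 and 1.91 CPM with DMSO and at 2.03 and 3.04 CPM with ACBI1, from 114 to 193 counts per library. The ACBI1 libraries were above the DMSO libraries in both lines. The log2 fold changes of 0.55 ± 0.21 (adjusted p 0.0706) and 0.44 ± 0.23 (adjusted p 0.157) were not called. In H1975 it was called under 7 of 18 alternatives, among them DESeq2 (0.58), upper-quartile factors (0.619), library totals (0.75) and removal of HCC44 ACBI1 replicate 1 (0.545, adjusted p 0.0331) or replicate 2 (0.545, adjusted p 0.0341); adjusted p ranged from 0.0164 to 0.254. In HCC44 it was called without ACBI1 replicate 1 (0.707, adjusted p 0.0344) and was 0.127 without ACBI1 replicate 2 (adjusted p 0.756), the ends of its range over the alternatives.

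**Figure D2:**
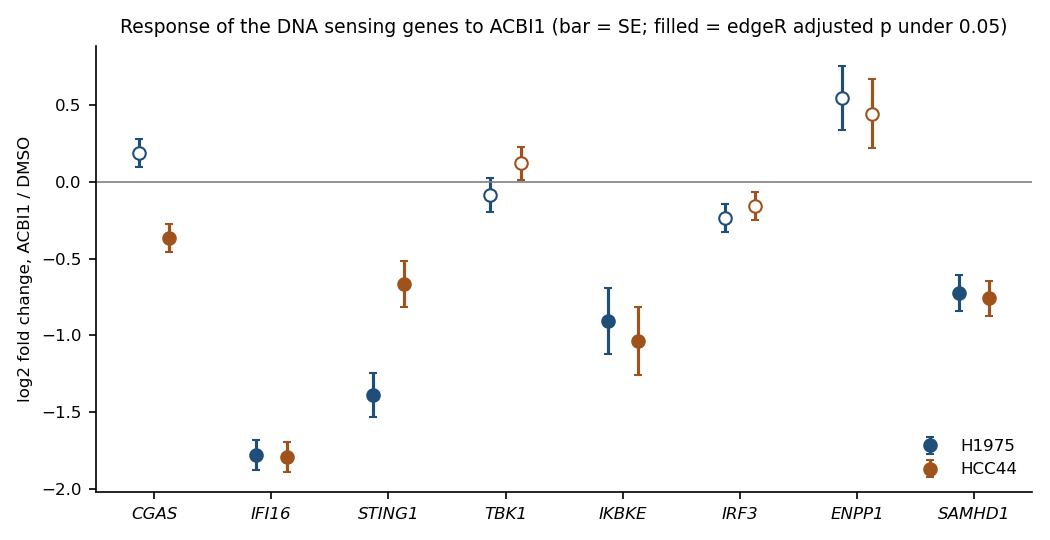
Log2 fold change of ACBI1 over DMSO (y axis) for the 8 tested DNA sensing genes in H1975 and HCC44; bars are standard errors and filled points have an adjusted p under 0.05. IFI16, IKBKE and SAMHD1 lie at like values in both lines (-1.78 and -1.79 for IFI16), and STING1 and CGAS do not.

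TREX1 (chr3:48465811-48467645, plus strand) had a count of 0 in all 8 libraries. A count of 0 allows up to 0.0426 to 0.0480 CPM of assigned counts, counting error only. These limits are relative to library totals, without the TMM factors. In GENCODE 29, 100% of its 1515 exon bases lie inside an exon of ATRIP on the same strand (chr3:48446710-48467645), which encodes the partner of the checkpoint kinase ATR. ATRIP had 808 to 1902 counts per library. Of 52 protein-coding genes whose every exon base is shared with a gene on the same strand, 48 (92.3%) had no count in any library, against 1628 of 15961 (10.2%) with no shared exon base. Reads that fit more than 1 gene stand in a summary row of the tables that held 4.98 to 5.42% of each library, and the annotation the authors used is not given in the sources used here. The part of this overlap in the count of 0 was not tested, and TREX1 entered no test.

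**Figure D3:**
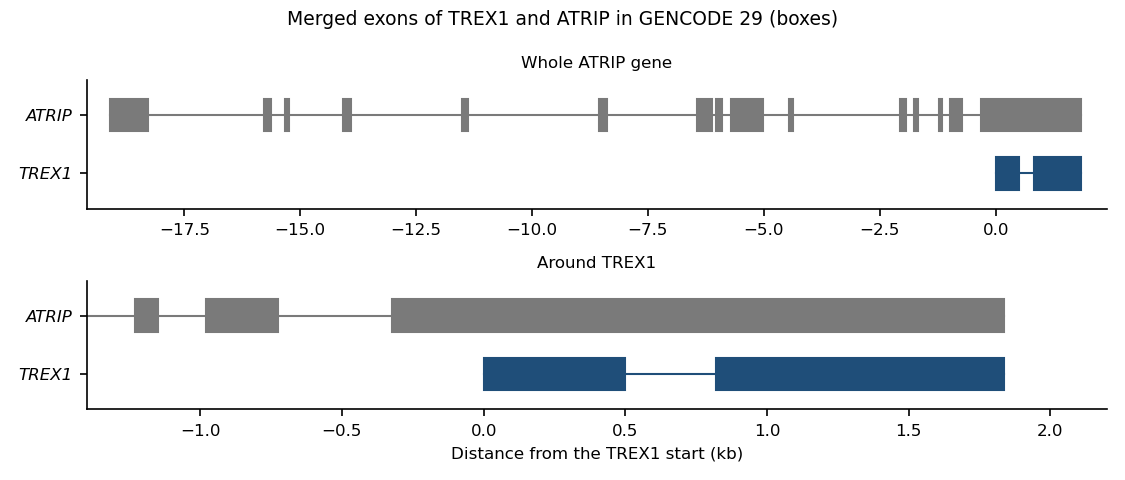
Merged exons (boxes) of TREX1 and ATRIP in GENCODE 29 by distance from the TREX1 start (x axis, kb), for all of ATRIP (top) and near TREX1 (bottom). Both TREX1 exon blocks lie inside the last ATRIP block.

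The test of whether the response differed between lines (log2 fold change in HCC44 less that in H1975) called 2 of the 8 genes, STING1 and CGAS, where 18.6% of all tested genes were called, 10.2% higher and 8.4% lower. The STING1 difference was 0.72 ± 0.20 (adjusted p 0.0315), a smaller fall in HCC44, and the CGAS difference was -0.55 ± 0.13 (adjusted p 0.0136). The 95% intervals for the other genes were -0.14 to 0.55 for TBK1, -0.81 to 0.55 for IKBKE, -0.21 to 0.36 for IRF3 and -0.78 to 0.58 for ENPP1. The STING1 difference was called in 9 of 17 alternatives. It was not called without H1975 DMSO replicate 1 (0.655) or replicate 2 (0.74), H1975 ACBI1 replicate 2 (0.549), HCC44 DMSO replicate 1 (0.707) or replicate 2 (0.739) or HCC44 ACBI1 replicate 2 (0.621), and with library totals it was 0.608; adjusted p ran from 0.00553 to 0.147 over the alternatives. The CGAS difference was called in 15 of 17 and not without HCC44 DMSO replicate 2 (-0.497), with adjusted p from 0.00269 to 0.0664.

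**Figure D4:**
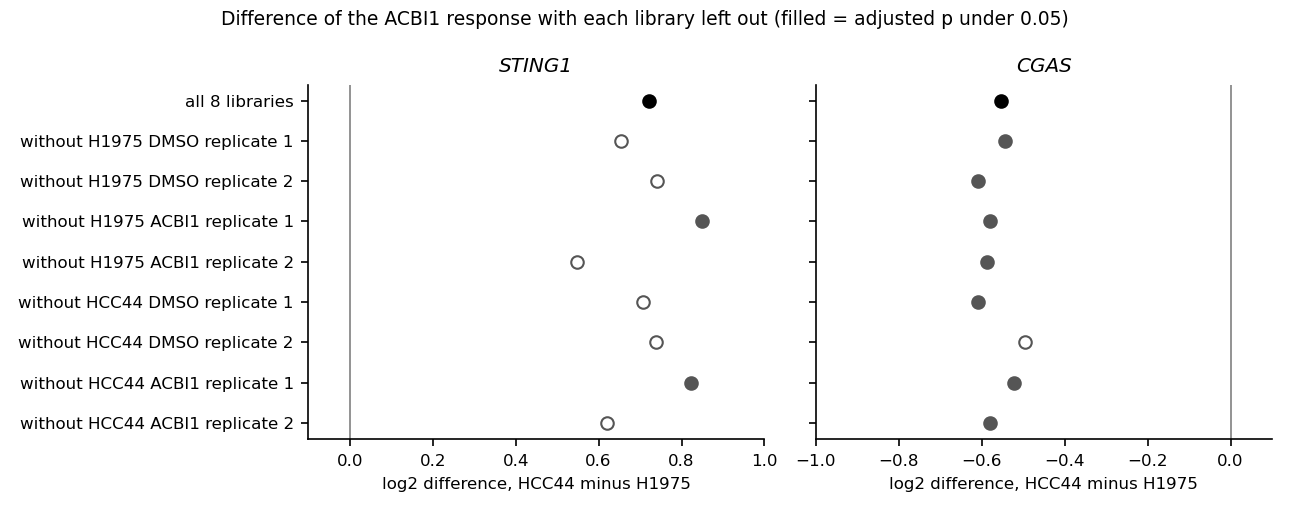
Difference in log2 fold change, HCC44 minus H1975 (x axis), for STING1 and CGAS with all 8 libraries and with each left out; filled points have an adjusted p under 0.05. STING1 kept its sign at 0.549 to 0.85 but was called in 2 of the 8 reduced sets, and CGAS in 7 of 8.

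The untreated lines differed in 7 of the 8 genes, where 67.9% of all tested genes were called, 31.6% higher and 36.4% lower in HCC44. With DMSO, HCC44 had more CGAS (2.48-fold, adjusted p 3.41e-07), TBK1 (2.05-fold, adjusted p 9.16e-06) and IRF3 (1.37-fold, adjusted p 0.00097) than H1975. It had less STING1 (5.01-fold, adjusted p 1.53e-07), ENPP1 (2.74-fold, adjusted p 0.000147), IFI16 (1.76-fold, adjusted p 1.93e-05) and SAMHD1 (1.65-fold, adjusted p 0.000186). IKBKE was not called (log2 fold change -0.33, 95% interval -0.81 to 0.14). These 8 results held under all 18 alternatives. This comparison shares its DMSO libraries with the comparisons of ACBI1, so its values are not independent of theirs.

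Per kilobase, IFI16 was the most abundant of the 8 RNAs in both lines with DMSO, at 67.5 ± 4.4 CPM per kilobase (SD, n = 2) in H1975 and 38.4 ± 0.33 in HCC44. In H1975 with DMSO it was followed by IRF3 (25.1 ± 1.8), STING1 (10.8 ± 0.74), SAMHD1 (7.86 ± 1.1), CGAS (6.996 ± 0.026), TBK1 (6.32 ± 0.14), IKBKE (3.36 ± 0.20) and ENPP1 (0.513 ± 0.022). SAMHD1 and CGAS differ there by less than the SD of SAMHD1. In HCC44 with DMSO the order after IFI16 was IRF3 (34.5 ± 0.24), CGAS (17.4 ± 0.88), TBK1 (12.95 ± 0.65), SAMHD1 (4.77 ± 0.22), IKBKE (2.67 ± 0.0026), STING1 (2.15 ± 0.025) and ENPP1 (0.187 ± 0.0071). STING1 was above CGAS, TBK1, SAMHD1 and IKBKE in H1975 and below all of these in HCC44. With ACBI1 IRF3 was the most abundant of the 8 in both lines, at 21.4 ± 0.18 against 19.6 ± 1.7 for IFI16 in H1975, a gap close to the SD of IFI16, and at 30.9 ± 2.5 against 11.1 ± 0.79 in HCC44.

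The genes most like STING1 over the 8 libraries, by Pearson correlation of log2 CPM among 11657 other genes, were IFIT3 (r 0.998), an interferon-induced gene, NPC2 (0.997), a lysosomal cholesterol carrier, and CRYBG3 (0.996). For CGAS they were SLC38A5 (0.999), an amino acid transporter, NPC1 (0.998), the membrane partner of NPC2, and C12orf29 (0.998). In all, 963 genes reached at least 0.9 with STING1 and 2017 with CGAS. The libraries fall into 4 groups, and the lines differ in most genes, so these values describe an order of groups and carry no test.

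Other genes of DNA sensing were counted in 6 lists by role, to be read against all tested genes, of which 14.6% were called higher and 16.7% lower in H1975 and 17.5% and 17.4% in HCC44. Of 8 tested other DNA sensors, 2 fell and none rose in H1975, and 3 fell and 1 rose in HCC44 (medians -0.03 and -0.17). LRRFIP1, a nucleic acid binding protein, fell in both lines (log2 fold change -0.39 ± 0.08, adjusted p 0.00354, and -0.58 ± 0.08, adjusted p 0.000278). AIM2, which with IFI16 belongs to the PYHIN family and forms an inflammasome on DNA, fell in H1975 from 26.6 ± 1.1 to 12.8 ± 5.8 CPM (-1.06 ± 0.27, adjusted p 0.0166). AIM2 was also called lower in HCC44, from 3.80 ± 0.16 to 1.56 ± 0.41 CPM (-1.28 ± 0.32, adjusted p 0.0112). That HCC44 call was not followed through the alternatives. In HCC44 POLR3A, the largest subunit of RNA polymerase III, fell (-0.64 ± 0.09) and MRE11, a subunit of the break repair nuclease, rose (0.66 ± 0.13). In H1975 AIM2 was not called without DMSO replicate 1 (-1.02) or replicate 2 (-1.05) or ACBI1 replicate 2 (-0.63). It was -1.59 there without ACBI1 replicate 1. LRRFIP1 in H1975 was not called without ACBI1 replicate 2 (-0.347) or with library totals (-0.191).

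Genes for STING transport and its ubiquitin ligases fell in 3 of 12 tested cases in H1975 and in 7 of 12 in HCC44, with none called higher (medians -0.14 and -0.39). In HCC44 the cargo receptor TMED2 fell from 398 ± 41 CPM (SD, n = 2) to 189.5 ± 27 CPM with edgeR adjusted p of 4.83e-05. SURF4, another cargo receptor, fell there from 683 ± 9.5 to 331 ± 68 CPM (adjusted p 0.000132). In H1975 ZDHHC3, a palmitoyltransferase, fell by 0.42 (SE 0.08, adjusted p 0.00324) and TRIM32, a ubiquitin ligase, by 0.40 (SE 0.10, adjusted p 0.0126). TMED2 was called lower in H1975 too (-0.35 ± 0.11, adjusted p 0.0307), a call not followed through the alternatives. ZDHHC3 was not called without H1975 ACBI1 replicate 1 (-0.378) or with library totals (-0.213). TRIM32 was not called with library totals (-0.199), without either ACBI1 library (-0.366 and -0.384) or without DMSO replicate 2 (-0.276).

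Kinase adaptors and downstream factors fell in 4 of 13 cases in H1975, and 3 fell and 2 rose in HCC44 (medians 0.02 and -0.14). IRF7, the interferon-inducible relative of IRF3, went from 79.01 ± 4.5 down to 38.5 ± 0.87 CPM in H1975 and from 25.3 ± 0.84 down to 16.3 ± 2.5 CPM in HCC44, with adjusted p of 0.000136 and 0.00209. STAT6, a factor that STING can recruit, fell in H1975 by 0.90 (SE 0.11, adjusted p 0.000262). In HCC44 NFKB1, an NF-kB subunit, rose by 0.47 (SE 0.09, adjusted p 0.00238), TRAF3, an adaptor of TBK1 signalling, rose by 0.31 (SE 0.09, adjusted p 0.0159), and AZI2, a scaffold of TBK1, fell by 0.41 (SE 0.10, adjusted p 0.00861). TRAF3 was not called without either HCC44 DMSO library (0.345 and 0.275), and AZI2, which shares 55.4% of its exon bases with a gene on the other strand, was not called without DMSO replicate 2 (-0.34) or ACBI1 replicate 2 (-0.354).

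Nucleases and other limits on self nucleic acid rose in 2 and fell in 4 of 12 cases in H1975, and rose in 5 and fell in 1 in HCC44 (medians 0.02 and 0.32). ADAR, which edits double-stranded RNA, fell in H1975 by 0.57 (SE 0.08, adjusted p 0.000656), and DNASE2, the lysosomal DNase, rose in HCC44 by 0.63 (SE 0.09, adjusted p 0.000498). APOBEC3B, a cytidine deaminase, went from 14.9 ± 3.2 up to 53.2 ± 12 CPM in H1975 and from 7.89 ± 5.5 up to 32.97 ± 5.7 CPM in HCC44, with adjusted p of 0.0197 and 0.0118. It belongs to a family of related genes and shares 18.35% of its exon bases with a gene on the same strand, so its counts are given as uncertain. Its call in H1975 was lost without any H1975 library (1.62, 2.07, 2.07 and 1.68 without ACBI1 replicates 1 and 2 and DMSO replicates 1 and 2), and that in HCC44 was lost without HCC44 ACBI1 replicate 2 (1.87) or any H1975 library (2.06 each); without the filter neither was called. The HCC44 value moved most with the DMSO libraries, to 1.48 without replicate 1 and 3.04 without replicate 2, and was called in both cases. RNASEH2B rose in both lines (0.36 ± 0.11 in H1975 and 0.37 ± 0.11 in HCC44, adjusted p 0.0283 and 0.0221). Its H1975 call was lost without DMSO replicate 1 (0.275) or ACBI1 replicate 1 (0.448) or 2 (0.334), and its HCC44 call was not followed through the alternatives. DNASE1 was called in H1975 (-0.47 ± 0.15), but not with any 1 of the 4 H1975 libraries left out (-0.435 to -0.467). With upper-quartile factors or library totals its call was lost too. SKIC2 was called in HCC44 (-0.30 ± 0.10), but not without HCC44 DMSO replicate 1 (-0.289) or 2 (-0.307) or ACBI1 replicate 2 (-0.243), nor with library totals (-0.206) or upper-quartile factors (-0.244).

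Genes for cGAMP transport and hydrolysis rose in 3 and fell in 2 of 10 cases in H1975, and rose in 2 and fell in 5 in HCC44. The medians were -0.12 and -0.18. Without SLC46A3, which had 0 counts with DMSO and 2 with ACBI1 in H1975, the H1975 median was -0.21. The list holds subunits of the LRRC8 volume-regulated channels, which pass cGAMP between cells. LRRC8B rose in both lines (0.86 ± 0.11, adjusted p 0.00027, and 0.76 ± 0.10, adjusted p 0.000293), and LRRC8E fell in both (-0.60 ± 0.11, adjusted p 0.00209, and -1.04 ± 0.11, adjusted p 6e-05), though 74.3% of its exon bases are shared with a gene on the other strand. LRRC8D rose in H1975 (0.47 ± 0.09, adjusted p 0.00247) and fell in HCC44 (-0.25 ± 0.09, adjusted p 0.0456). The HCC44 call of LRRC8D was near the threshold and was not followed through the alternatives. SLC19A1, a folate carrier that imports cGAMP, rose in HCC44 from 60.7 ± 5.5 to 110.1 ± 25 CPM (adjusted p 0.000884), with 14.01% of its exon bases shared with COL18A1 on the other strand. LRRC8A was called in H1975 (-0.28 ± 0.09, adjusted p 0.041) but in only 7 of 18 alternatives, and it was lost without ACBI1 replicate 1 (-0.305) or 2 (-0.201), H1975 DMSO replicate 2 (-0.143) or either HCC44 DMSO library (-0.281). SMPDL3A, a cGAMP-degrading enzyme, was called in HCC44 (-0.79 ± 0.24), but not without ACBI1 replicate 2 (-0.53) or either DMSO library (-0.762 and -0.824).

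Genes known to be induced through IRF3 or interferon fell in 9 of 11 tested cases in H1975, with none higher, and 5 fell and 2 rose in HCC44 (medians -1.57 and -0.48). IFNB1, which encodes interferon beta, was called lower in both lines from few counts per group (11 to 0 in H1975, 69 to 4 in HCC44). IFIT1 fell in H1975 (-1.58 ± 0.20, adjusted p 0.000501). In HCC44 it rose (1.03 ± 0.32, adjusted p 0.0319) from 0.663 to 1.35 CPM, and the difference was called (2.61 ± 0.37, adjusted p 0.00197). Neither gene was followed through the alternatives. In H1975 RSAD2, an antiviral enzyme, fell from 16.4 ± 1.6 to 2.55 ± 0.83 CPM (adjusted p 0.000124). IFIT3, which binds viral RNA with its relatives, fell there from 130.4 ± 8.1 to 33.5 ± 12 CPM (adjusted p 0.000182). In HCC44 IFIT3 fell from 9.90 ± 0.31 to 5.37 ± 0.69 CPM (adjusted p 0.0113), and ISG20, an exonuclease, rose by 1.09 (SE 0.25, adjusted p 0.00902). ISG15, a ubiquitin-like modifier, fell in both lines. Its fall was 0.80 (SE 0.20, adjusted p 0.0166) in H1975 and 0.72 (SE 0.20, adjusted p 0.0243) in HCC44. The H1975 call of ISG15 was not followed through the alternatives. IFIT3 in HCC44 was not called without ACBI1 replicate 1 (-0.756) or DMSO replicate 2 (-0.848). ISG20 in HCC44 was not called without ACBI1 replicate 2 (0.749) or DMSO replicate 1 (0.969). The HCC44 call of ISG15 was lost without HCC44 DMSO replicate 2 (-0.594) or H1975 DMSO replicate 1 (-0.723) or 2 (-0.725). Its HCC44 value was -0.413 without HCC44 ACBI1 replicate 1 and -1.11 without replicate 2, called in both cases.

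**Figure D5:**
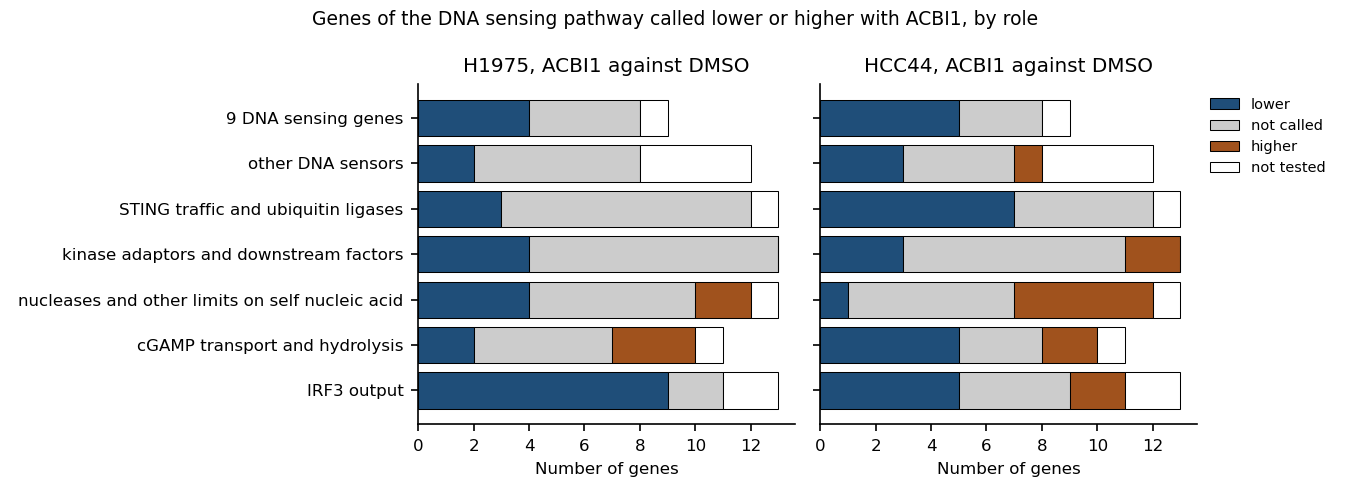
Number of genes (x axis) called lower, not called, called higher and not tested with ACBI1 in H1975 (left) and HCC44 (right), for the 9 DNA sensing genes and 6 lists by role. Falls outnumber rises in every list in H1975 except cGAMP transport and hydrolysis, and 9 of 11 tested IRF3 output genes fell there.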

How the data were processed

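RNA libraries from H1975 and HCC44 cells with DMSO or ACBI1, 2 per group, were grouped by their titles. The authors deposited raw counts of reads per gene symbol, 1 table per library with 61228 names and 5 summary rows. TopHat2 2.1.1, HTSeq 0.11.0 and hg38 are named in the submitters' processing notes; annotation and strand setting are not given in the sources used here. The summary rows, 14.3 to 15.8% of each table, stayed out of library sizes and tests. Replicates differed by more than sampling noise (chi-square per degree of freedom 24.0 to 48.4).

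From the counts, edgeR 4.0.16 (R 4.3.3) kept 21307 genes with filterByExpr, scaled them by TMM and fitted 1 mean per group to all 8 libraries (4 residual degrees of freedom), with the two-sided robust quasi-likelihood F-test and Benjamini-Hochberg adjustment over all tested genes. The SE is the log2 fold change divided by the square root of F, and 95% intervals use the t quantile of the fit. The procedure was also run on simulated data in which far fewer genes changed than were called here, and no result rests on that run. Exon lengths, overlaps and gene coordinates came from GENCODE 29 (GRCh38), promoter windows from RefSeq (GRCh38.p14). Genes named from each list were, per line, up to 2 largest called rises and 2 largest called falls among genes whose mean reached 5 CPM in a group. IFNB1 and IFIT1 were named outside this rule. For likeness the 3 highest correlations were named. The 9 genes and the lists were chosen with earlier results of these data known. The alternatives were DESeq2 1.42.0, RLE, upper-quartile and library-total scaling, no filter, 1 CPM in 2 libraries, only the compared groups, the replicate block, non-robust dispersion, adjusted p under 0.01 and each library left out. Figures were drawn with matplotlib 3.10.9.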

Additional observations from a re-analysis of the deposited data

Results flagged for a closer look

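A test of the difference itself found responses to ACBI1 that differed between the lines, given as HCC44 minus H1975 in log2 fold change with SE. The difference was 0.72 ± 0.20 for STING1, whose log2 fold changes were -1.39 in H1975 and -0.67 in HCC44, and -0.55 ± 0.13 for CGAS, with 0.19 and -0.37.

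Among the named genes of the 6 lists, the difference was -0.78 ± 0.13 for POLR3A, -0.72 ± 0.15 for TMED2, -0.84 ± 0.18 for SURF4, 0.76 ± 0.16 for STAT6, 0.69 ± 0.12 for ADAR, -0.71 ± 0.12 for LRRC8D and 1.07 ± 0.20 for SLC19A1. Each of these 7 was called under all 17 alternatives tried. The genes of this paragraph were picked as large called changes per line in the same libraries, which favours a difference between lines. Their calls are thus no independent support. Over all tested genes, 18.6% were called for the difference. LRRC8D was called higher in H1975 (0.47) and lower in HCC44 (-0.25), where the call was not followed through the alternatives. The difference was -0.52 ± 0.14 for AZI2, called in 11 of 17 alternatives, and 1.08 ± 0.29 for IFIT3, called in 9 of 17. AZI2 was not called without H1975 DMSO replicate 1 (-0.458), H1975 ACBI1 replicate 2 (-0.471), HCC44 DMSO replicate 1 (-0.586) or 2 (-0.454) or HCC44 ACBI1 replicate 2 (-0.468). IFIT3 was not called without H1975 DMSO replicate 1 (1.02) or 2 (1.09), HCC44 DMSO replicate 1 (1.04) or 2 (1.11) or HCC44 ACBI1 replicate 1 (1.21) or 2 (0.942), nor with library totals (0.962).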

How the results depend on the processing

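With each library left out, the number of genes called was 3688 to 7161 in H1975, 4947 to 7342 in HCC44 and 2343 to 4133 for the difference, and the number of the 8 DNA sensing genes called for the difference was 0 to 2. At an adjusted p under 0.01 the counts were 3691, 4681 and 1654 genes, and 0 of the 8 for the difference. With library totals 1 of the 8 was called for the difference, TBK1 in H1975 was 0.119 and the IRF3 difference was -0.0358. That scaling moved the median gene in H1975 from -0.0138 to 0.18 on the log2 scale and the share of calls that were higher from 46.6% to 72.3%, in HCC44 from 50% to 60.5% and for the difference from 54.9% to 40.5%. Signs of uncalled values turned with a library left out, and the cause was not tested: TBK1 in HCC44 ranged from -0.0251 to 0.255, and the differences from -0.573 to 0.213 for IKBKE, -0.00407 to 0.16 for IRF3, -0.419 to 0.162 for ENPP1, -0.13 to 0.0632 for IFI16 and -0.232 to 0.103 for SAMHD1.

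The replicate number as a block raised the count for the difference to 6358 genes. In H1975 the block called IRF3 (-0.234) and ENPP1 (0.546) besides the 4 genes called without it, and it changed no other call of the 8. Same-numbered libraries deviated together at 0.374 in H1975 and 0.109 in HCC44, but no batch is named in the labels, and the libraries share only a number. ENPP1 had the fewest counts of the 8, with 114 in its lowest library.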
